A study of Mus musculus with 20 samples.

Results

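Solute carriers are the membrane proteins that move nutrients, ions, metals, nucleosides, vitamins and metabolites across the plasma membrane and the membranes of organelles. This account describes 154 solute carrier genes in murine bone marrow-derived macrophages (BMDMs). They were the protein-coding genes with a symbol starting Slc or Slco and a digit, and a mean of at least 3 CPM (counts scaled to a common library total) over all 20 libraries, out of 393 such symbols and 78409 genes in the table. Of the others, 229 lay below the limit, 90 of them with no count in any library, and 10 were left out by name (Slc2a1, Slc2a6, Slc16a1, Slc16a3, Slc40a1, Slc11a1, Slc11a2, Slc39a14, Slc7a11 and Slc7a2). The genes just inside the limit were Slc17a9 at 3.02 CPM, Slc1a4 at 3.13 CPM and Slc16a13 at 3.14 CPM, and those just outside were Slc22a15 at 2.83 CPM, Slc2a3 at 2.71 CPM and Slc18a1 at 2.66 CPM. The limit used the mean over all groups, and 21 of the 154 averaged under 3 CPM in at least 1 group, so that some genes entered through the groups in which they were high. In PBS, 7 averaged under 3 CPM, so any rise of these against PBS was partly set by the limit.

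Wild-type BMDMs from C57BL/6J mice (female), on day 7 of culture and at 200000 cells per well, received PBS, EVFx or ProteinFx in Opti-MEM without serum. EVFx and ProteinFx are the EV-enriched and protein-enriched fractions of bronchoalveolar lavage fluid (BALF), separated by size exclusion chromatography, from ovalbumin-challenged mice that were RNY1+/+ or carried a CRISPR deletion of both RNY1 alleles (RNY1-/-). RNY1 is a small noncoding Y RNA, and the genotype is that of the BALF donors, never of the macrophages. By the study's methods the knockout mice came from GemPharmatech, and the others were C57BL/6J from JAX. Littermate controls are not mentioned, so donor genotype and donor source cannot be told apart. EVFx was given at 35000000 particles per µL and ProteinFx at 0.75 µg of protein per µL, after 5 days of cold storage, which makes 5 groups (PBS, RNY1+/+ EVFx, RNY1-/- EVFx, RNY1+/+ ProteinFx and RNY1-/- ProteinFx) of 4 libraries each. The 2 fractions were dosed in different units, so a comparison between them is one of these preparations at these doses. It is not stated if the 4 libraries in each group stem from different BALF pools, mice or wells, and p-values therefore measure only the spread between these libraries, which may be technical.

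Macrophages take up much of their glucose, glutamine and essential amino acids through carriers of the plasma membrane, and clear the products of digestion from lysosomes through another set. Activated macrophages are known for altered amino acid supply, heme and metal handling and traffic of dicarboxylates such as succinate and itaconate. By family, the 154 genes comprised 32 of the mitochondrial carrier family (family 25, which includes the peroxisomal Slc25a17 and Slc25a46 of the outer mitochondrial membrane), 26 carriers of organic ions, vitamins and lipids, 25 of amino acids and peptides, 21 of metals and heme, 18 of inorganic ions, 18 of nucleotide sugars (family 35), 8 of sugars and sugar phosphates and 4 of nucleosides. The remaining pair, Slc4a1ap and Slc7a6os, match the symbol pattern but are named as an adaptor and an opposite-strand gene. The classes follow the family number and not each gene's own substrate, so Slc43a3, a purine base carrier, counts among those of amino acids. Together these genes took 0.797% to 0.907% of the counts of a library. Mean levels over the 20 libraries ranged widely, with a median of 24.3 CPM, 41 genes under 10 CPM and 21 above 100 CPM. The 5 genes with the most counts were Slc6a6, the taurine transporter, at 1441 CPM, Slc25a5, an ADP/ATP carrier, at 510.0 CPM, Slc31a2 at 498 CPM, Slc25a3, the mitochondrial phosphate carrier, at 292 CPM, and Slc66a3 at 210.2 CPM. These are counts of transcript 3′ ends and are not scaled by gene length, so they order the genes by counts only.

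Libraries held 2510005 to 8277366 counts, and 3 counts, the largest number taken as not measurable, stood for 0.362 to 1.2 CPM. The macrophage markers were abundant in every group: the 8 genes Adgre1, Csf1r, Cd68, Itgam, Lyz2, Mrc1, Fcgr1 and Mertk summed to 8543 to 13439.7 CPM per library. The eosinophil, B cell, erythroid and mast cell lists summed to at most 2.90, 1.68, 0.420 and 0.263 CPM in any library, and Epx, Sftpc, Tpsb2 and Mcpt4 had no count. Of the neutrophil list, S100a8 and S100a9 made up most of a sum of 143 to 354 CPM, while Ly6g stayed at or under 0.191 CPM. Of the T cell list only Cd4 exceeded 3 counts (sums of 0.259 to 9.02 CPM), of the airway list only Krt18 and Epcam (3.26 to 19.5 CPM), and fibroblast sums were 8.87 to 42.2 CPM. Among macrophage markers, Mrc1 lay at 592 to 968 CPM in PBS and at 45.4 to 60.4 CPM with RNY1+/+ EVFx, and Adgre1 at 763 to 1013 and 2716 to 2817 CPM. The neutrophil sum was 282 to 333 CPM in PBS and 143 to 209 CPM with RNY1+/+ EVFx, and the part of these shifts in the results was not tested. PBS replicate 3 stood apart from the other PBS libraries, at distances of 51.9 to 70.6 on the log2 CPM scale against 26.1 to 38.5 among the other 3. The RNY1-/- ProteinFx libraries fell into the pairs 1 and 2 (25.9 apart) and 3 and 4 (38.8 apart), with 49.2 to 60.4 between the pairs. In these bulk samples, fewer cells with a transcript and less transcript per cell cannot be told apart.

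Genes counted as called passed an adjusted p of 0.05 with more than a 2-fold difference (1 on the log2 scale). The first comparisons ask which transporters differ between treated and PBS-treated BMDMs. With RNY1+/+ EVFx, 24 of the 153 transporter genes tested were called higher and 9 lower, where 8.24% and 8.2% of all genes tested were called in these directions. With RNY1-/- EVFx, 19 of 153 were called higher and 20 lower, against 9.02% and 13.5% of all genes. With RNY1+/+ ProteinFx, 20 of 151 were called higher and 20 lower, against 8.96% and 12.4% of all genes. With RNY1-/- ProteinFx, 13 of 151 were called higher and 11 lower, against 6.31% and 7.99% of all genes. Median log2 fold changes of the transporters were 0.08, 0.05, -0.00433 and 0.04 in this order, and those of all genes lay between -0.0317 and -0.0286. All comparisons with PBS share the same 4 PBS libraries, and the counts of one do not add to those of another.

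At an adjusted p under 0.05 whatever the fold, 49 transporters were higher and 27 lower with RNY1+/+ EVFx (all genes 21.7% and 22.8%), 46 and 42 with RNY1-/- EVFx (27.7% and 30.7%), 47 and 33 with RNY1+/+ ProteinFx (25.9% and 29.3%) and 29 and 24 with RNY1-/- ProteinFx (16.7% and 19%). Scaling by total counts in place of TMM lowered the median of all genes by 0.18, 0.24, 0.17 and 0.07 on the log2 scale in the 4 comparisons with PBS. The calls higher and lower then numbered 21 and 14 with RNY1+/+ EVFx, 18 and 33 with RNY1-/- EVFx, 13 and 22 with RNY1+/+ ProteinFx and 12 and 13 with RNY1-/- ProteinFx. All genes called then numbered 735 and 1235, 697 and 2147, 773 and 1853, and 617 and 1022, of 10729 to 10854 tested. Without PBS replicate 3 the members called numbered 24 and 10, 23 and 25, 24 and 23, and 15 and 18. The counts for all genes were 949 and 957, 1236 and 1668, 1200 and 1654, and 846 and 1182, of 10669 to 10833 tested. For RNY1-/- ProteinFx, the count of members lower than PBS was also 6 without PBS replicate 1, 5 without PBS replicate 2, 6 without either RNY1-/- ProteinFx replicate 3 or replicate 4, 20 with only replicates 3 and 4 of that group and 3 with only replicates 1 and 2. All genes called lower in these runs numbered 591, 574, 680, 594, 1370 and 364, against 867 with every library.

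**Figure D1:**
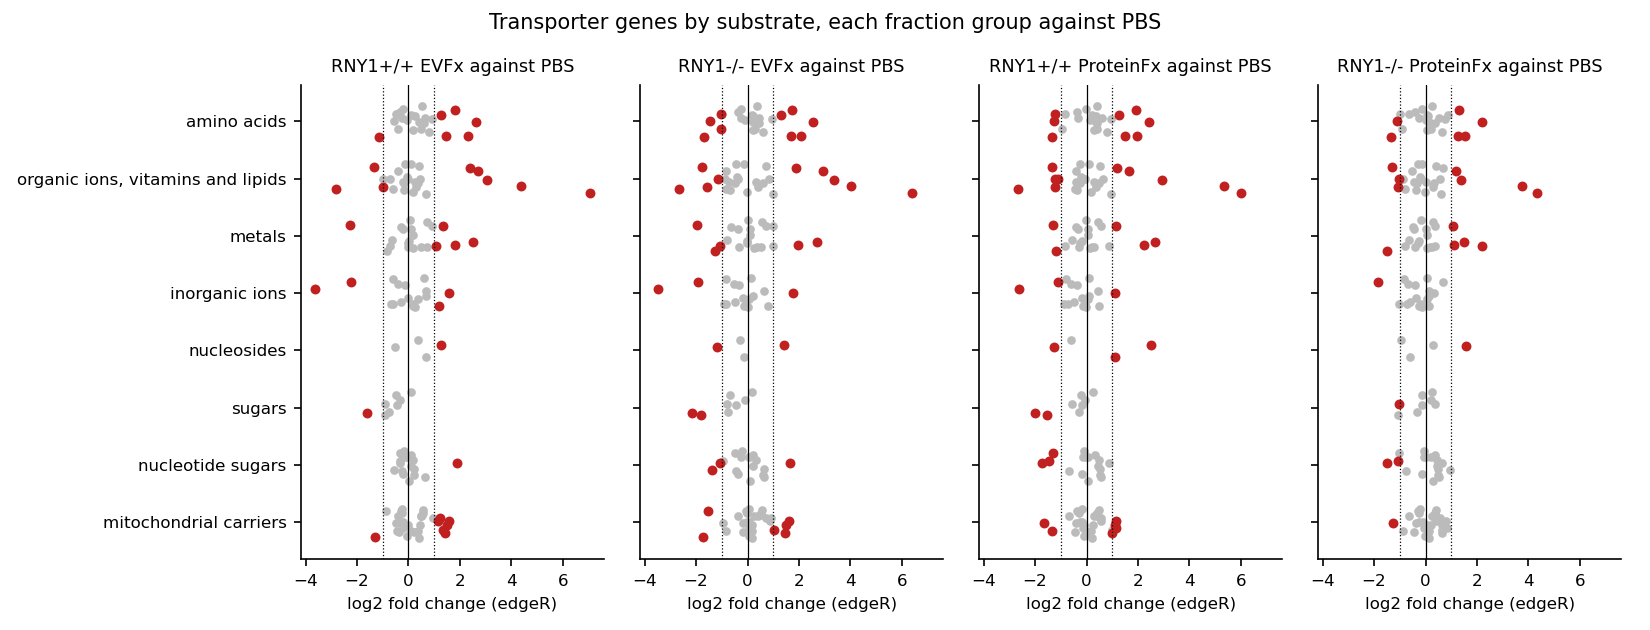
Log2 fold change of each transporter gene against PBS (edgeR, x axis), with genes grouped by the substrate class of their family on the y axis, 1 panel per fraction group of 4 libraries. Red points are called, grey points are not, and Slc4a1ap and Slc7a6os are not drawn. The points farthest right are Slc13a3 and Slco3a1 in all 4 panels, the point farthest left is Slc9a9 in 3 panels and Slc46a3 with RNY1+/+ ProteinFx. None of the 8 sugar carriers among the members is called higher, and Slc2a1, Slc2a3 and Slc2a6 are not members.

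The largest rise in all 4 comparisons was that of Slc13a3 (ENSMUSG00000018459), the sodium-coupled carrier that takes up succinate, 2-oxoglutarate and other dicarboxylates and has been described as an itaconate importer. Its PBS libraries held 0.410, 0.927, 0.457 and 0.712 CPM, close to the level that 3 counts stand for. Slc13a3 is thus a member only through the treated groups, and its rise was partly set by the limit. The size of its folds against PBS is uncertain. The RNY1+/+ EVFx libraries held 91.3, 83.1, 58.5 and 84.3 CPM and the RNY1-/- EVFx libraries 49.8, 62.1, 38.7 and 44.1 CPM. No treated library came near the PBS range. With ProteinFx the values were 36.2, 44.1, 30.2 and 43.4 CPM for RNY1+/+ and 12.3, 15.7, 12 and 12.2 CPM for RNY1-/-. The log2 fold change against PBS was 7.06 (SE 0.24, adjusted p = 9.28e-09) with RNY1+/+ EVFx, 6.41 (SE 0.25, adjusted p = 1.41e-08) with RNY1-/- EVFx, 6.00 (SE 0.25, adjusted p = 6.19e-09) with RNY1+/+ ProteinFx and 4.34 (SE 0.26, adjusted p = 8.37e-07) with RNY1-/- ProteinFx. The 5 group means thus ran from 0.626 ± 0.24 CPM in PBS through 13 ± 1.77 with RNY1-/- ProteinFx, 38.5 ± 6.59 with RNY1+/+ ProteinFx and 48.7 ± 10 with RNY1-/- EVFx to 79.3 ± 14.3 with RNY1+/+ EVFx (SD, n = 4 each), where the ranges of both EVFx groups overlapped, as did those of RNY1-/- EVFx and RNY1+/+ ProteinFx.

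The organic anion transporting polypeptides among the members, Slco3a1 and Slco4a1, were higher than PBS where tested. Both averaged under 3 CPM in PBS and are members only through the groups in which they were high. Their rises were thus partly set by the limit. Slco3a1, whose product carries prostaglandins and thyroid hormone, held 2.66, 2.32, 2.06 and 2.85 CPM in PBS. It reached 55.5, 49, 34.8 and 44.3 CPM with RNY1+/+ EVFx, 41.9, 37.4, 24.4 and 34.5 CPM with RNY1-/- EVFx, 80.0, 98.6, 72.4 and 111 CPM with RNY1+/+ ProteinFx and 30.8, 36.2, 30.7 and 31.1 CPM with RNY1-/- ProteinFx. The RNY1+/+ ProteinFx libraries were thus the highest, with no overlap with any other group. Log2 fold changes against PBS were 4.38 (SE 0.20, adjusted p = 3.73e-08), 4.04 (SE 0.22, adjusted p = 1.01e-07), 5.34 (SE 0.20, adjusted p = 3.27e-09) and 3.75 (SE 0.17, adjusted p = 1.27e-07) in this order. Slco4a1, a thyroid hormone carrier of the same family, was at 0.615, 0.927, 0.686 and 1.07 CPM in PBS, at 6.42 ± 1.72 CPM with RNY1+/+ EVFx, 7.45 ± 0.518 with RNY1-/- EVFx and 5.67 ± 1.94 with RNY1+/+ ProteinFx. Its log2 fold changes were 3.07 (SE 0.31, adjusted p = 1.22e-05), 3.35 (SE 0.24, adjusted p = 8.46e-07) and 2.92 (SE 0.34, adjusted p = 3.60e-05). Its PBS values lay close to the level that 3 counts stand for, so the size of these folds is uncertain. With RNY1-/- ProteinFx it was at 2.08, 2.38, 2.79 and 2.59 CPM and lay under the 3 CPM limit of that comparison with PBS, so no test was made there.

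Among the 25 amino acid carriers, 5 were called higher and 1 lower with RNY1+/+ EVFx, 5 and 4 with RNY1-/- EVFx, 5 and 3 with RNY1+/+ ProteinFx and 4 and 2 with RNY1-/- ProteinFx, of 24 tested in each. Of all genes, the shares called in these directions were 8.24% and 8.2%, 9.02% and 13.5%, 8.96% and 12.4%, and 6.31% and 7.99%. The called counts of the other substrate classes below stand beside the same shares and rest on few genes. Slc7a1 encodes the cationic amino acid transporter that supplies arginine and lysine. It held 9.84, 9.11, 13.5 and 10.1 CPM in PBS, 45.9, 46, 47.7 and 48.2 CPM with RNY1+/+ EVFx, 48.9, 57.2, 53.2 and 47.6 CPM with RNY1-/- EVFx, 53.2, 47.4, 56.0 and 46.8 CPM with RNY1+/+ ProteinFx and 39.1, 43.5, 50.6 and 50.3 CPM with RNY1-/- ProteinFx. The 16 treated libraries lay between 39.1 and 57.2 CPM, all above the 9.11 to 13.5 CPM of PBS. Log2 fold changes were 2.33, 2.53, 2.43 and 2.18 in the order of the groups above, with adjusted p from 1.14e-07 to 7.31e-06. Slc7a5, the light chain of the large neutral amino acid transporter LAT1, rose from 3.29 ± 0.780 CPM to 18.4 ± 5.02, 12.1 ± 1.59, 11.8 ± 3.26 and 9.09 ± 3.11 CPM, with log2 fold changes of 2.64, 2.09, 1.98 and 1.55 and adjusted p up to 0.00194. Slc7a8, the light chain of LAT2, was called only with ProteinFx, at 1.93 (SE 0.15, adjusted p = 1.55e-06) for RNY1+/+ and 1.29 (SE 0.13, adjusted p = 4.15e-05) for RNY1-/-. With EVFx its log2 fold changes were 0.81 (SE 0.12, adjusted p = 0.000314) and 0.46 (SE 0.15, adjusted p = 0.0188), and the direct test between the RNY1+/+ fractions is given further on. Slc7a6, the y+LAT2 light chain that exchanges cationic for neutral amino acids, was called higher with both EVFx groups and RNY1+/+ ProteinFx (log2 fold changes 1.27, 1.71 and 1.48) and stood at 0.87 (SE 0.32, adjusted p = 0.0546) with RNY1-/- ProteinFx. Slc38a2, the sodium-coupled carrier of alanine, serine and glutamine, rose by 0.92, 1.30, 1.24 and 1.24 on the log2 scale, with adjusted p up to 0.00144.

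Some members of the amino acid class fell, among them the endolysosomal Slc15a4. Slc66a2, of the PQ-loop family and in this class only by its family number, went from 45.7 ± 7.08 CPM in PBS to 18.4 ± 1.88 with RNY1+/+ EVFx and 14.2 ± 1.95 with RNY1-/- EVFx, at log2 fold changes of -1.14 (SE 0.14, adjusted p = 6.42e-05) and -1.45 (SE 0.15, adjusted p = 1.71e-05). With ProteinFx it stood at -0.94 (SE 0.15, adjusted p = 0.000295) and -0.65 (SE 0.16, adjusted p = 0.0125). Slc15a4, the endolysosomal histidine and peptide carrier, held 30.1 ± 11.6 CPM in PBS and was called lower with RNY1-/- EVFx (-1.04), RNY1+/+ ProteinFx (-1.28) and RNY1-/- ProteinFx (-1.35). With RNY1+/+ EVFx it stood at -0.25 (SE 0.26, adjusted p = 0.474). Its paralog Slc15a3 was called in the other direction with RNY1+/+ EVFx, at 1.46 (SE 0.24, adjusted p = 0.000464), and stood at 0.97 (SE 0.23, adjusted p = 0.00398) with RNY1+/+ ProteinFx. Slc38a10 was called lower with RNY1-/- EVFx (-1.71), RNY1+/+ ProteinFx (-1.36) and RNY1-/- ProteinFx (-1.10). Slc6a6, the member with the most counts, had log2 fold changes of -0.37, -0.25, -0.37 and -0.43 and adjusted p of 0.0128, 0.0639, 0.0133 and 0.0155. It has fractional counts, from reads shared with other loci, in 16 of 20 libraries.

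Both copper carriers of family 31 rose in every treated group. Slc31a1 encodes CTR1, the copper importer of the plasma membrane, and Slc31a2 encodes CTR2, its paralog of endosomes and lysosomes. Slc31a2 stood at 113, 115, 117 and 116 CPM in PBS against 599.6, 599, 569.9 and 563 CPM with RNY1+/+ EVFx and 658, 628, 609 and 655 CPM with RNY1-/- EVFx. With ProteinFx it held 651, 682, 622 and 676 CPM for RNY1+/+ and 438, 476, 507 and 566 CPM for RNY1-/-. The log2 fold changes were 2.51, 2.71, 2.68 and 2.18, each with an SE of at most 0.13 and an adjusted p of at most 7.22e-07. Slc31a1 went from 68.8 ± 6.42 CPM in PBS to 215 ± 10.3, 227 ± 20.4, 284 ± 25.7 and 184 ± 16.2 CPM in the treated groups, in the same order. Its log2 fold changes were 1.82, 1.96, 2.22 and 1.49, with adjusted p of at most 1.03e-05.

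The promoters of both copper carriers, neighbours on one chromosome, and of Slc13a3 are shown because they belong to a copper carrier pair that rose in every treated group and to the gene with the largest rise. Each is the RefSeq window from 250 bases before to 50 bases after a transcription start, 300 bases long, in GRCm38.p6, which is not the build of the counts. The window of Slc31a1 lies at chr4:62360451-62360750, plus strand, that of Slc31a2 at chr4:62286179-62286478, plus strand and that of Slc13a3 at chr2:165473148-165473447, minus strand. Windows were searched on both strands for TGATGNAA (the ATF4 amino acid response element), TTCNNTTTC (a short form of the interferon-stimulated element), GGNNTTTCC (an NF-kB form) and CACGTGAC (the E-box form bound by TFEB and MITF), where N is any base. Capitals mark a match, and the only one in these 3 windows is the E-box form in that of Slc31a2.
Slc31a1: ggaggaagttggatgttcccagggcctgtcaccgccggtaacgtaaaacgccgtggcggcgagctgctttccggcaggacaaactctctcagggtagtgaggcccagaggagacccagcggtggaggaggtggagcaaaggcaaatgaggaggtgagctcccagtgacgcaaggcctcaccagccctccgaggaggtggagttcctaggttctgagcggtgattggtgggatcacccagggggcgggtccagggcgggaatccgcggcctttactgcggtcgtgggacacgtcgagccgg
Slc31a2: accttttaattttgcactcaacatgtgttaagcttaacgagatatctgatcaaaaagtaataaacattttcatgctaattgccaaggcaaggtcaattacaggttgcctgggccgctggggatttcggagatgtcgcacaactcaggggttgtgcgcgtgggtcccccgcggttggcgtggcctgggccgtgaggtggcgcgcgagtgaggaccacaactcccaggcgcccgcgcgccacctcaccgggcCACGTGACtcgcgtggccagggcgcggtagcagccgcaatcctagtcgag
Slc13a3: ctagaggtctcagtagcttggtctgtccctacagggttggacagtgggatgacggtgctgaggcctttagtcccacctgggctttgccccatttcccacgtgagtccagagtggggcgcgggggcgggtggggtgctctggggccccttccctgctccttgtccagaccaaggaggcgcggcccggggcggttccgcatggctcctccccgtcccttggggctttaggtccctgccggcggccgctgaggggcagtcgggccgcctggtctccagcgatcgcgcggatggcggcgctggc
Of the 154 windows found for 115 of the members, 3.90% held the ATF4 element, 6.49% the interferon form, 3.25% the NF-kB form and 7.14% the E-box form. Of all 32851 windows these shares were 3.97%, 8.56%, 5.82% and 2.25%. The E-box form was added to the search after the sequences were read, and a match is a description of letters and not of binding.

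Of the 21 carriers of metals and heme, 4 were called higher and 1 lower with RNY1+/+ EVFx, 2 and 3 with RNY1-/- EVFx, 3 and 2 with RNY1+/+ ProteinFx and 4 and 1 with RNY1-/- ProteinFx. Slc39a8 and Slc48a1 were among the carriers that differed most between the RNY1+/+ fractions, as tested further on. Slc39a8 encodes ZIP8, which brings zinc and manganese into the cytosol. It held 12.7, 12.2, 15.3 and 12 CPM in PBS, 3.49, 1.63, 3.20 and 1.33 CPM with RNY1+/+ EVFx and 2.76, 2.38, 2.46 and 3.70 CPM with RNY1-/- EVFx, for log2 fold changes of -2.29 (SE 0.27, adjusted p = 4.84e-05) and -1.95 (SE 0.20, adjusted p = 1.41e-05). Every EVFx library was thus below every PBS library. With ProteinFx the values were 13, 8.87, 7.79 and 10.8 CPM for RNY1+/+ and 12.8, 10.2, 9.16 and 11.2 CPM for RNY1-/-, which overlapped PBS, and the log2 fold changes were -0.18 (SE 0.19, adjusted p = 0.426) and -0.19 (SE 0.16, adjusted p = 0.36). Slc48a1 encodes HRG1, which carries heme out of the phagolysosome. It stood at 133, 139.8, 61.3 and 107 CPM in PBS and at 243, 220.3, 219 and 298 CPM with RNY1+/+ EVFx, a log2 fold change of 1.32 (SE 0.22, adjusted p = 0.000571). With RNY1+/+ ProteinFx it was at 36.8, 30.9, 44.2 and 45.1 CPM and with RNY1-/- ProteinFx at 42.9, 47.6, 25.9 and 31.6 CPM, called lower than PBS at -1.32 (SE 0.23, adjusted p = 0.000701) and -1.5 (SE 0.26, adjusted p = 0.00181). The lowest PBS value was that of replicate 3, which stood apart. With RNY1-/- EVFx the values of 131, 152, 133 and 122 CPM reached 0.52 (SE 0.21, adjusted p = 0.0493). Of the zinc exporters, Slc30a4 was called higher than PBS with RNY1-/- ProteinFx (1.12, SE 0.25, adjusted p = 0.00699) and Slc30a7, the Golgi exporter, with RNY1+/+ ProteinFx (1.13, SE 0.13, adjusted p = 3.41e-05) and RNY1-/- ProteinFx (1.07, SE 0.16, adjusted p = 0.000659). Of the zinc-responsive genes outside the family, Mt1 and Mt2, which encode metallothioneins, were lower in all 4 comparisons. Mt1 went from 235 ± 55.3 CPM in PBS to 91.7 ± 15.7, 69.9 ± 10.1, 59.2 ± 6.26 and 87.3 ± 24.5 CPM (SD, n = 4). Its log2 fold changes were -1.18, -1.51, -1.82 and -1.36. Mtf1 did not reach the limit of the fold in any of the 4. By edgeR it was higher with RNY1+/+ EVFx (0.52, adjusted p = 0.00669) and RNY1-/- EVFx (0.47, adjusted p = 0.00289). With the ProteinFx groups it stood at 0.21 and 0.15 (adjusted p = 0.125 and 0.332).

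Of the carriers of organic ions, vitamins and lipids, 5 were called higher and 3 lower with RNY1+/+ EVFx, 5 and 4 with RNY1-/- EVFx and 5 and 5 with RNY1+/+ ProteinFx (26 tested), and 4 and 3 with RNY1-/- ProteinFx (25 tested). The nucleoside carriers were 4. Slc28a2 encodes CNT2, which concentrates purine nucleosides and uridine with sodium. It held 33.2, 33.1, 43.3 and 35.8 CPM in PBS, 89.8, 87.7, 62.6 and 69.4 CPM with RNY1+/+ EVFx, 106, 98.0, 59.5 and 66.1 CPM with RNY1-/- EVFx, 177, 195, 155 and 209 CPM with RNY1+/+ ProteinFx and 95.1, 108, 107 and 97.7 CPM with RNY1-/- ProteinFx. Log2 fold changes were 1.27, 1.43, 2.51 and 1.56, with adjusted p of at most 7.72e-05. The RNY1+/+ ProteinFx libraries were the highest and did not overlap with any other group. Slc28a2 has fractional counts in 12 of 20 libraries, as has its near copy Slc28a2b, which was called with RNY1+/+ ProteinFx only (1.12, SE 0.22, adjusted p = 0.00141), so reads may be split between the pair and the values of both are uncertain. Slc29a1, the equilibrative carrier ENT1, was called lower with RNY1+/+ ProteinFx (-1.28, SE 0.24, adjusted p = 0.00102). Slc22a4 encodes OCTN1, the ergothioneine transporter. It stood at 18, 19.6, 34.3 and 32 CPM in PBS, 96.5, 117, 148 and 119 CPM with RNY1+/+ EVFx and 145, 147, 194 and 191 CPM with RNY1-/- EVFx, for log2 fold changes of 2.39 (SE 0.22, adjusted p = 6.92e-06) and 2.95 (SE 0.22, adjusted p = 1.14e-06). With ProteinFx it held 21.4, 23.8, 22.4 and 29.7 CPM for RNY1+/+ and 18.1, 16.1, 23.5 and 27.2 CPM for RNY1-/-, within the PBS range or just below it, with log2 fold changes of 0.08 and -0.23 (adjusted p = 0.761 and 0.499). Slc49a3 rose from 2.03 ± 0.171 CPM to 11.8 ± 2.33, 6.40 ± 0.880, 5.58 ± 1.22 and 4.39 ± 1.06 CPM, at log2 fold changes of 2.71, 1.90, 1.64 and 1.18. It too lay under 3 CPM in PBS, so its rise was partly set by the limit on members. Slc19a2, the thiamine carrier, was called higher with RNY1-/- ProteinFx (1.37, SE 0.28, adjusted p = 0.00433). Slc35g1, counted with the nucleotide sugar carriers by its family, was called higher with RNY1+/+ EVFx (1.88, SE 0.20, adjusted p = 1.70e-05) and RNY1-/- EVFx (1.66, SE 0.19, adjusted p = 3.25e-05).

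**Figure D2:**
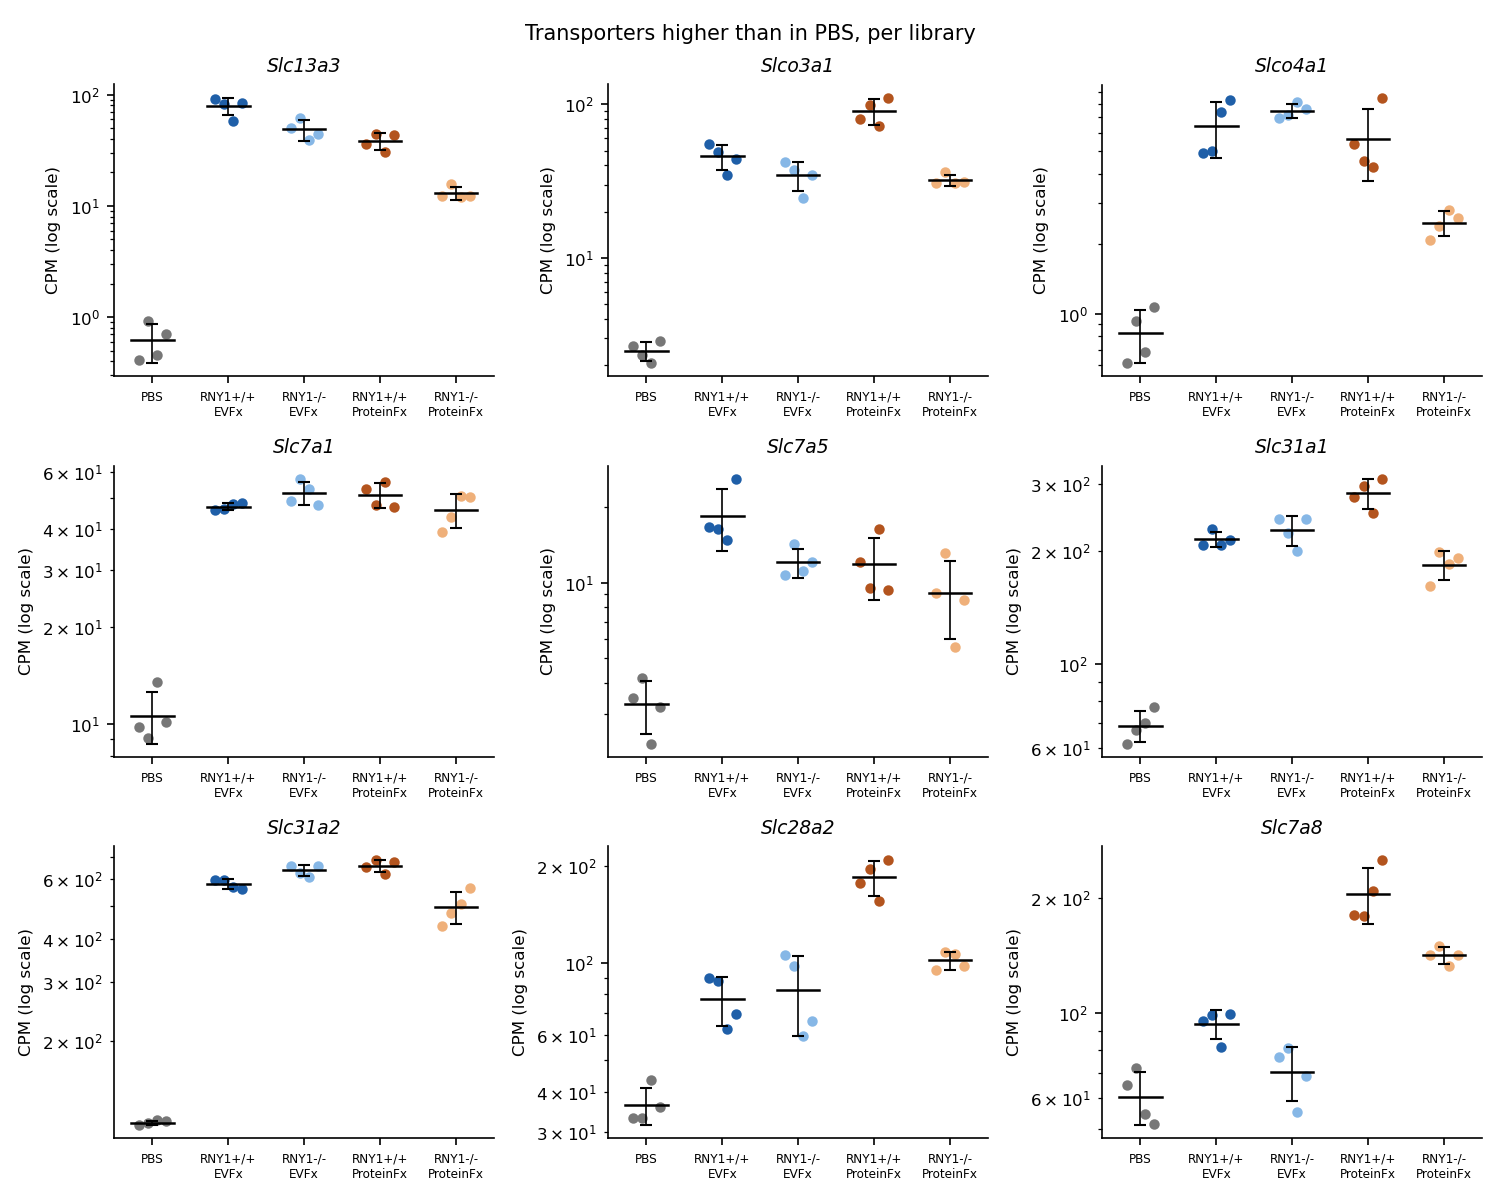
CPM per library (y axis, log scale) of 9 transporters in the 5 groups, with the mean as a bar and the SD as whiskers (n = 4). All treated libraries lie above all PBS libraries in every panel except that of Slc7a8, where the RNY1-/- EVFx libraries overlap PBS.

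Slc9a9 and Slc46a3 had the largest falls with both EVFx groups and with RNY1+/+ ProteinFx. Slc9a9 (ENSMUSG00000031129) encodes NHE9, the sodium/proton exchanger of endosomes. It held 105, 102, 76.2 and 91.3 CPM in PBS and 8.53, 6.51, 5.81 and 5.68 CPM with RNY1+/+ EVFx, 9.32, 8.79, 5.67 and 3.87 CPM with RNY1-/- EVFx, 15.5, 14.7, 14.3 and 9.89 CPM with RNY1+/+ ProteinFx and 30.2, 28.8, 19.5 and 20.7 CPM with RNY1-/- ProteinFx. Every treated library was below every PBS library. The log2 fold changes were -3.63 (SE 0.17, adjusted p = 3.89e-08), -3.49 (SE 0.22, adjusted p = 3.11e-07), -2.62 (SE 0.16, adjusted p = 1.60e-07) and -1.84 (SE 0.16, adjusted p = 1.85e-05). Slc46a3 (ENSMUSG00000029650), a lysosomal carrier, went from 76.4, 77.6, 64.7 and 71.0 CPM in PBS to 8.66, 8.88, 9.21 and 9.54 CPM with RNY1+/+ EVFx, 10.1, 9.68, 9.61 and 9.25 CPM with RNY1-/- EVFx, 11.1, 9.88, 12.1 and 8.15 CPM with RNY1+/+ ProteinFx and 29.7, 34.3, 22.7 and 25.9 CPM with RNY1-/- ProteinFx. The log2 fold changes were -2.82 (SE 0.11, adjusted p = 1.82e-08), -2.66 (SE 0.11, adjusted p = 2.45e-08), -2.65 (SE 0.14, adjusted p = 4.15e-08) and -1.29 (SE 0.14, adjusted p = 6.15e-05). The RNY1-/- ProteinFx libraries lay between PBS and the other 3 treated groups, with no overlap with either. The same family holds Slc46a1, the proton-coupled folate transporter, which was called lower with RNY1+/+ EVFx (-1.0, SE 0.32, adjusted p = 0.0249) and RNY1-/- EVFx (-1.57, SE 0.37, adjusted p = 0.00367) and stood at -0.25 and 0.03 with the ProteinFx groups (adjusted p = 0.471 and 0.936). The call with RNY1+/+ EVFx was lost without PBS replicate 1, 2 or 4 or RNY1+/+ EVFx replicate 1, 3 or 4, at adjusted p from 0.0534 to 0.0688.

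Of the 18 carriers of inorganic ions, 5 passed an adjusted p of 0.05 in the higher and 5 in the lower direction with RNY1+/+ EVFx, 3 and 5 with RNY1-/- EVFx, 2 and 5 with RNY1+/+ ProteinFx and 1 and 4 with RNY1-/- ProteinFx. Nucleotide sugar carriers passed it 2 and 1, 4 and 4, 7 and 4 (17 tested) and 4 and 3 times in the same order. Of all genes, 21.7% and 22.8%, 27.7% and 30.7%, 25.9% and 29.3%, and 16.7% and 19% did so. Slc26a11, an anion carrier of lysosomes and the plasma membrane, fell from 68.8 ± 3.57 CPM in PBS to 12.8 ± 1.83, 15.3 ± 2.17, 28.4 ± 1.42 and 39.4 ± 4.76 CPM, and its log2 fold changes were -2.25, -1.92, -1.11 and -0.73 with adjusted p of at most 0.00123. Slc37a2, an exchanger of glucose 6-phosphate and phosphate in the endoplasmic reticulum, fell from 128 ± 21.5 CPM to 37.2 ± 3.44, 31 ± 4.32, 38.8 ± 6.72 and 59.5 ± 9.71 CPM, at -1.60, -1.8, -1.55 and -1.04 on the log2 scale. It was the only sugar carrier among the members called in all 4 comparisons. Slc2a8, the intracellular hexose carrier GLUT8, was called lower with RNY1-/- EVFx (-2.17, SE 0.44, adjusted p = 0.00157) and RNY1+/+ ProteinFx (-2.02, SE 0.43, adjusted p = 0.00234). None of the 8 sugar carriers among the members passed an adjusted p of 0.05 in the higher direction in any of the 4 comparisons (edgeR and DESeq2, with 0 at an unadjusted p under 0.05). Slc2a1 and Slc2a6 were left out by name and Slc2a3 lay below the limit on members. These carriers of the family of Slc2a8 are therefore not covered. Slc17a5, the lysosomal sialic acid exporter, was called lower with RNY1+/+ EVFx only, at 59.5, 55.4, 49.7 and 48.5 CPM against 125, 134, 202 and 155 CPM in PBS (-1.35, SE 0.15, adjusted p = 3.51e-05). Of the bicarbonate carriers, Slc4a7 was called higher with RNY1+/+ EVFx (1.59, SE 0.19, adjusted p = 4.12e-05), RNY1-/- EVFx (1.78, SE 0.18, adjusted p = 1.19e-05) and RNY1+/+ ProteinFx (1.09, SE 0.20, adjusted p = 0.00095).

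**Figure D3:**
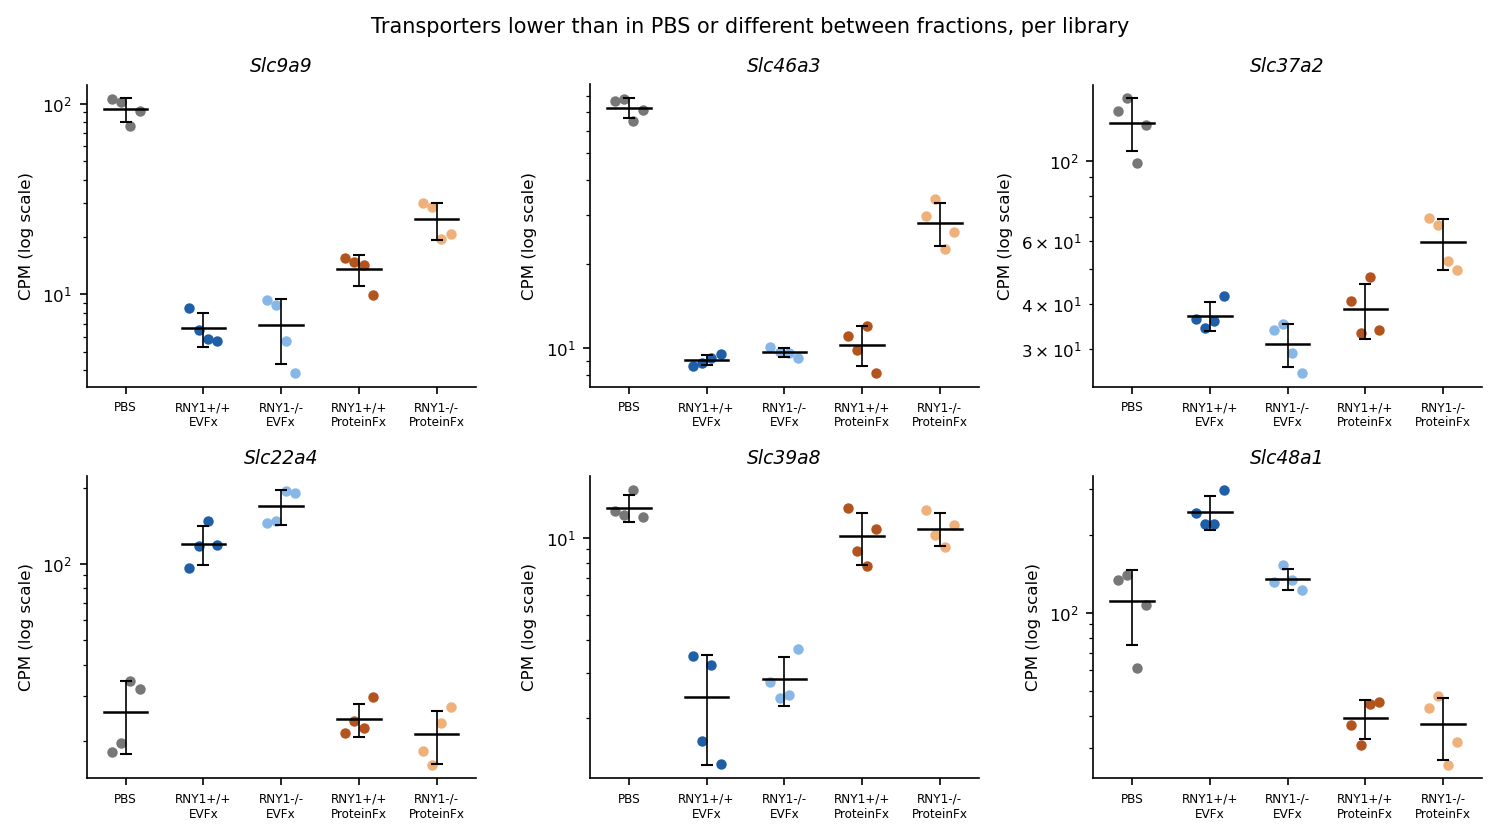
CPM per library (y axis, log scale) of 6 transporters in the 5 groups, with the mean as a bar and the SD as whiskers (n = 4). Slc9a9, Slc46a3 and Slc37a2 are below PBS in all treated libraries, Slc22a4 and Slc39a8 lie outside the PBS range in all EVFx libraries and overlap it with ProteinFx, and Slc48a1 is above PBS with RNY1+/+ EVFx and below it with both ProteinFx groups.

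Of the mitochondrial carrier family, 6 were called higher and 1 lower with RNY1+/+ EVFx and 4 and 2 with RNY1-/- EVFx (32 tested), 4 and 2 with RNY1+/+ ProteinFx and 0 and 1 with RNY1-/- ProteinFx (31 tested). In that last comparison 5 passed an adjusted p of 0.05 in the higher direction by edgeR (16.7% of all genes did). At an unadjusted p of 0.05, 7 passed, and DESeq2 also called 0 higher. The aspartate/glutamate carriers are a pair of paralogs, and they moved in opposite directions. Slc25a12 rose at log2 fold changes of 1.33, 1.46, 1.13 and 0.84, with adjusted p of at most 0.000801. Slc25a13 fell from 51.4, 44.2, 54.0 and 44.5 CPM in PBS to 17.8, 17.8, 16.8 and 17.7 CPM with RNY1+/+ EVFx and 15.8, 13.9, 13.8 and 13 CPM with RNY1-/- EVFx. With ProteinFx it stood at 16.9 ± 3.15 CPM for RNY1+/+ and 25.3 ± 2.98 CPM for RNY1-/-, and its log2 fold changes were -1.29, -1.54, -1.36 and -0.86 with adjusted p of at most 0.000661. Slc25a33, a pyrimidine nucleotide carrier, had log2 fold changes of 1.56, 1.63, 1.00 and 0.28. Slc25a37, mitoferrin 1, which brings iron into mitochondria, had 1.23, 1.48, 1.1 and 0.63. Slc25a22, a glutamate carrier, had 1.49, 1.03, 1.15 and 0.39. For these 3 the last value, with RNY1-/- ProteinFx, was not called (adjusted p = 0.406, 0.0421 and 0.163). Slc25a39, which carries glutathione, held 57.4, 61.8, 19.2 and 38.8 CPM in PBS and was called lower with RNY1-/- EVFx (-1.72, SE 0.30, adjusted p = 0.000592), RNY1+/+ ProteinFx (-1.65, SE 0.31, adjusted p = 0.00097) and RNY1-/- ProteinFx (-1.26, SE 0.38, adjusted p = 0.0264). Its lowest PBS value was again that of replicate 3. With RNY1-/- ProteinFx, the calls of Slc25a39 and Slc38a10 were lost without PBS replicate 1 or 2 or RNY1-/- ProteinFx replicate 3 or 4, at adjusted p from 0.0617 to 0.0852. With only RNY1-/- ProteinFx replicates 1 and 2, Slc25a39 stood at -0.87 (adjusted p = 0.189), Slc38a10 at -0.85 (adjusted p = 0.202) and Slc15a4 at -1.03 (adjusted p = 0.0957).

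Members called lower were more often GC-rich with RNY1-/- EVFx and both ProteinFx groups, but not with RNY1+/+ EVFx. The members were split at their median transcript GC content of 49.9%. With RNY1-/- EVFx, 15 of the 76 GC-rich members were called lower than PBS and 5 of the 77 others. With RNY1+/+ ProteinFx these counts were 17 of 75 and 3 of 76, and with RNY1-/- ProteinFx 9 of 74 and 2 of 77. With RNY1+/+ EVFx they were 3 of 76 and 6 of 77. Across all genes, Spearman's rho between log2 fold change and GC content was -0.0934 with RNY1+/+ EVFx, -0.424 with RNY1-/- EVFx, -0.457 with RNY1+/+ ProteinFx and -0.495 with RNY1-/- ProteinFx, as a description over the genes of the same libraries. After trends with transcript length and GC were taken out of every library, the members called lower numbered 8, 13, 8 and 6, and those called higher 25, 23, 19 and 10. All genes called lower then numbered 840, 991, 881 and 441, of 10390 to 10509 tested. Those called higher numbered 834, 880, 849 and 602. Slc2a8 (GC 60.8%), Slc35e4 (60.7%), Slc35b2 (59.8%), Slc25a39 (59.7%) and Slc38a10 (57.6%) are of the GC-rich kind. With RNY1+/+ ProteinFx, Slc35e4 had a log2 fold change of -1.74 as measured and -1.08 after removal of the trends, and Slc25a39 -1.65 and -0.92. Slc46a3 (GC 49.9%) and Slc9a9 (47.6%) stood at -2.61 and -2.79 after removal, and Slc13a3 (56.2%) at 6.40.

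The next comparison asks how macrophages treated with RNY1+/+ ProteinFx differ from those treated with RNY1+/+ EVFx. Of 151 members tested, 11 were called higher with ProteinFx and 21 lower, against 6.71% and 6.82% of all genes, and 45 and 55 passed an adjusted p of 0.05 whatever the fold, against 31.1% and 32.2%. Slc39a8 had the largest rise, at 2.13 (SE 0.28, adjusted p = 1.12e-05), followed by the zinc exporter Slc30a4 at 1.62 (SE 0.18, adjusted p = 2.48e-06). Every ProteinFx library was above every EVFx library for each. Slc17a5 (1.28, SE 0.10, adjusted p = 6.94e-08), Slc28a2 (1.25, SE 0.12, adjusted p = 7.98e-07) and Slc36a1, the proton-coupled amino acid exporter of lysosomes (1.18, SE 0.09, adjusted p = 6.59e-08), came next. Slc7a8 was higher by 1.13 (SE 0.11, adjusted p = 1.05e-06). The largest fall was that of the heme carrier Slc48a1, at -2.64 (SE 0.13, adjusted p = 6.40e-10), with 30.9 to 45.1 CPM against 219 to 298 CPM. Slc22a4 followed at -2.29 (SE 0.14, adjusted p = 6.53e-09) and Slc35g1 at -2.01 (SE 0.21, adjusted p = 1.24e-06), with 2.30, 2.28, 1.76 and 2.08 CPM against 9.44, 7.01, 8.21 and 9.66 CPM. Slc25a1, the mitochondrial citrate carrier, had -2.0 (SE 0.35, adjusted p = 0.000171) and Slc29a1 -1.65 (SE 0.17, adjusted p = 1.41e-06). Slc43a3 and Slc43a2, carriers of purine bases and of large neutral amino acids, were both lower, at -1.40 (SE 0.16, adjusted p = 3.39e-06) and -1.40 (SE 0.11, adjusted p = 6.53e-08), and the copper carriers Slc31a1 and Slc31a2 differed by 0.41 (SE 0.09, adjusted p = 0.000862) and 0.17 (SE 0.08, adjusted p = 0.0616).

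Of the 21 members called lower, 18 were among the 75 GC-rich members, and Spearman's rho with GC content was -0.493 over all genes. After removal of the length and GC trends, 10 members were called higher and 9 lower. Of 10122 genes tested in that setting, 574 were called higher and 450 lower. Slc48a1 then stood at -2.17, Slc22a4 at -2.14, Slc35g1 at -2.12, Slc39a8 at 1.71 and Slc36a1 at 1.42, all with adjusted p under 0.05.

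The comparison of RNY1-/- with RNY1+/+ EVFx asks whether the response to EVFx differed between the donor genotypes. Of 147 members tested, 0 were called higher and 7 lower, against 0.378% and 1.98% of all genes. By edgeR, 39 members were higher and 50 lower at an adjusted p under 0.05, against 25.5% and 26.6% of all genes, and 43 were higher at an unadjusted p under 0.05. DESeq2 called 0 higher and 8 lower. The 7 were Slc25a10, the mitochondrial dicarboxylate carrier, at -1.26 (SE 0.21, adjusted p = 0.000537), Slc2a8 at -1.24 (SE 0.30, adjusted p = 0.00468), Slc25a39 at -1.23 (SE 0.12, adjusted p = 0.000199), Slc38a10 at -1.23 (SE 0.16, adjusted p = 0.000221), Slc35e4 at -1.22 (SE 0.20, adjusted p = 0.000512), Slc12a4, a potassium-chloride cotransporter, at -1.20 (SE 0.24, adjusted p = 0.00158), and Slc52a2, a riboflavin carrier, at -1.10 (SE 0.26, adjusted p = 0.00357). Slc25a39 held 11.8, 10.7, 11.6 and 11.4 CPM with RNY1-/- and 26.5, 26.3, 25 and 33.8 CPM with RNY1+/+ EVFx, without overlap. Without RNY1+/+ EVFx replicate 4, which was the highest for this gene, 4 members were called lower, as were 87 of all 10294 genes tested. The 3 members of smallest adjusted p in the higher direction were Slc35a5 (0.68, SE 0.08, adjusted p = 0.000199), Slc35f5 (0.64, SE 0.08, adjusted p = 0.000215) and Slc17a5 (0.64, SE 0.08, adjusted p = 0.000221).

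The 7 members called lower were GC-rich members, with transcript GC contents of 53.8% to 60.8%. Over the members, Spearman's rho between the log2 fold change and GC content was -0.772, and over all genes -0.654. Of the GC-rich members 44 of 72 passed an adjusted p of 0.05 in the lower direction and 6 in the higher, and among the other members 6 of 75 and 33. With the length and GC trends removed, 0 members were called in either direction by edgeR, 26 were higher and 26 lower at an adjusted p under 0.05, and 32 and 31 at an unadjusted p under 0.05. Of 10019 genes tested in that setting, only 59 were called higher and 34 lower. Slc25a39 then had a log2 fold change of -0.67 (adjusted p = 0.000434) and Slc2a8 -0.66 (adjusted p = 0.0951). Slc13a3, the largest rise against PBS, had a log2 fold change of -0.63 (SE 0.14, adjusted p = 0.00308) between RNY1-/- and RNY1+/+ EVFx, under the limit of the fold, and Slc22a4 differed by 0.57 (SE 0.14, adjusted p = 0.00435).

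**Figure D4:**
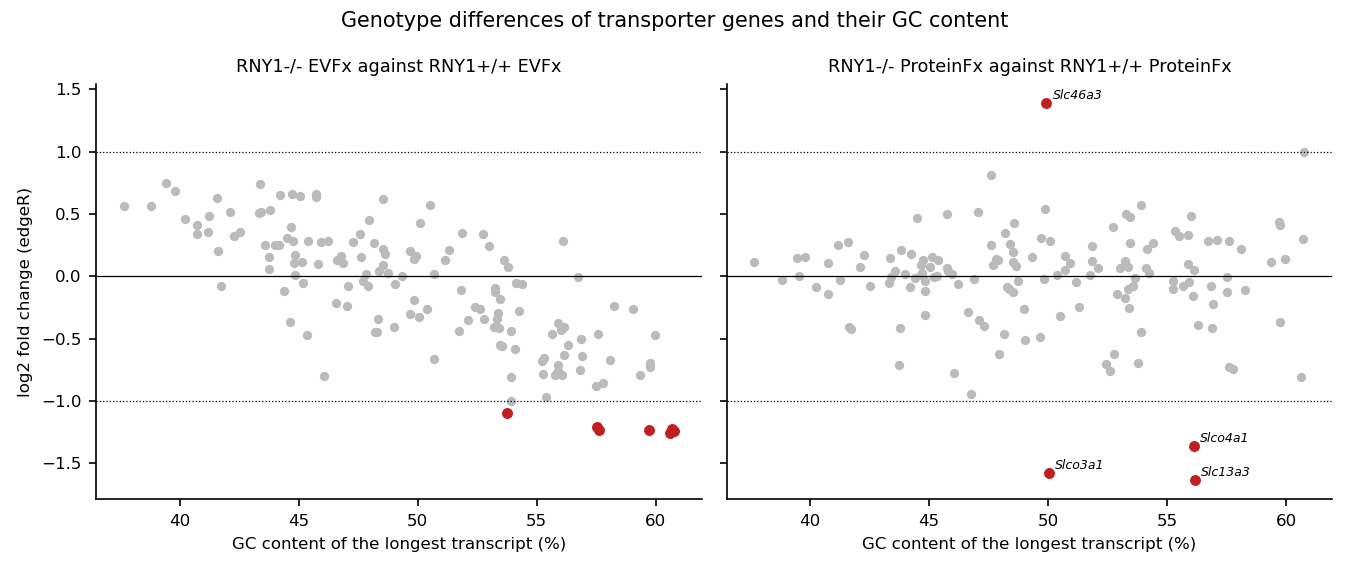
Log2 fold change of RNY1-/- against RNY1+/+ (edgeR, y axis) for EVFx on the left and ProteinFx on the right, against the GC content of the gene's longest transcript (x axis, percent), 1 point per member, red where called. On the left the values fall with GC content and the 7 called genes (Slc25a10, Slc2a8, Slc25a39, Slc38a10, Slc35e4, Slc12a4 and Slc52a2) lie between 53.8% and 60.8%. On the right Slc13a3, Slco3a1, Slco4a1 and Slc46a3 stand apart from a flat cloud (Spearman's rho over the members 0.0142).

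The same question was asked of ProteinFx. Of 147 members tested, 1 was called higher and 3 lower with RNY1-/- than with RNY1+/+ ProteinFx, against 0.659% and 1.17% of all genes, and 3 and 11 passed an adjusted p of 0.05 whatever the fold, against 2.2% and 3.37%. The 3 that were lower were Slc13a3, Slco3a1 and Slco4a1, all of which rose against PBS with RNY1+/+ ProteinFx. That comparison used the same RNY1+/+ ProteinFx libraries. The directions of these genes, and of Slc46a3 below, in the 2 comparisons are therefore not independent. Slc13a3 was at 12 to 15.7 CPM with RNY1-/- and 30.2 to 44.1 CPM with RNY1+/+ ProteinFx, a log2 fold change of -1.64 (SE 0.16, adjusted p = 0.000126). Slco3a1 was at 30.7 to 36.2 CPM against 72.4 to 111 CPM, at -1.58 (SE 0.15, adjusted p = 0.000126). Slco4a1 was at 2.08 to 2.79 CPM against 4.27 to 8.5 CPM, at -1.36 (SE 0.29, adjusted p = 0.0159). For each of these genes no RNY1-/- library reached the lowest RNY1+/+ library. The 1 that was higher was Slc46a3, which had fallen against PBS, at 22.7 to 34.3 CPM with RNY1-/- and 8.15 to 12.1 CPM with RNY1+/+ ProteinFx, a log2 fold change of 1.39 (SE 0.16, adjusted p = 0.000353). Further members passed the adjusted p but not the limit of the fold: Slc28a2 at -0.94 (SE 0.12, adjusted p = 0.000565), Slc31a1 at -0.71 (SE 0.12, adjusted p = 0.00317), Slc31a2 at -0.49 (SE 0.12, adjusted p = 0.0263) and Slc7a8 at -0.62 (SE 0.13, adjusted p = 0.0116) were lower, and Slc9a9 at 0.81 (SE 0.17, adjusted p = 0.0165) and Slc37a2 at 0.54 (SE 0.14, adjusted p = 0.0395) were higher.

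These calls differed in how far they rested on single libraries. Slco4a1 had an adjusted p of 0.0582 without RNY1+/+ ProteinFx replicate 4, 0.0545 without RNY1-/- ProteinFx replicate 1 and 0.092 with only RNY1-/- ProteinFx replicates 3 and 4. Slc13a3 had a log2 fold change of -1.71 with only replicates 3 and 4 of that group and -1.59 with only replicates 1 and 2. Slco3a1 had -1.59 and -1.57 and Slc46a3 1.22 and 1.51, each with adjusted p under 0.05. Without RNY1-/- ProteinFx replicate 2, and with only replicates 3 and 4, 5 members were called lower. Of all genes, 113 of 10418 and 121 of 10393 were then called lower. Without replicate 3, and with only replicates 1 and 2, 2 members were called higher. Of all genes, 96 of 10468 and 152 of 10482 were then called higher. After removal of the length and GC trends the counts of members called were again 1 and 3, with Slc13a3 at -1.69 and Slc46a3 at 1.35.

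Whether the genotype difference itself differed between the fractions was tested as an interaction over the 16 libraries of the fraction groups. Of 151 members, 51 passed an adjusted p of 0.05, a share of 33.8%, against 33% of all genes. The value of the interaction is the log2 fold change between genotypes with ProteinFx less that with EVFx. The 5 members of smallest p were Slc46a3 at 1.23 (SE 0.19, adjusted p = 0.0013), Slc31a1 at -0.87 (SE 0.14, adjusted p = 0.0016), Slc25a39 at 1.67 (SE 0.29, adjusted p = 0.00196), Slco3a1 at -1.25 (SE 0.23, adjusted p = 0.00283) and Slc38a10 at 1.52 (SE 0.29, adjusted p = 0.00294). Slc46a3 thus differed between genotypes by 1.39 with ProteinFx and 0.16 with EVFx. Slco3a1 differed by -1.58 and -0.33, Slc13a3 by -1.64 and -0.63 (interaction -1.0, SE 0.23, adjusted p = 0.00628) and Slco4a1 by -1.36 and 0.28 (interaction -1.66, SE 0.35, adjusted p = 0.00436).

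The count of interactions depended on the RNY1-/- ProteinFx libraries. It was 7 with only replicates 3 and 4 of that group, 83 with only replicates 1 and 2, 33 without replicate 1 and 32 without replicate 2. Over all genes, interactions past the adjusted p with an absolute value above 1 numbered 557 positive and 257 negative with all libraries. They numbered 42 and 59 with only replicates 3 and 4, and 1120 and 783 with only replicates 1 and 2. The swing was thus not particular to the members. After removal of the length and GC trends the count of members was 34, and Spearman's rho between the interaction and GC content was 0.635 over the members and 0.585 over all genes. With only replicates 3 and 4, Slc46a3 stood at 1.07 (adjusted p = 0.0119), Slc31a1 at -0.78 (adjusted p = 0.011), Slco3a1 at -1.25 (adjusted p = 0.024) and Slc25a39 at 1.02 (adjusted p = 0.0378). Slc13a3 stood at -1.06 (adjusted p = 0.0526), Slc38a10 at 1.12 (adjusted p = 0.0628) and Slco4a1 at -1.43 (adjusted p = 0.0773). After removal of the trends these 7 passed an adjusted p of 0.05, Slc13a3 at -1.48, Slco4a1 at -2.18, Slco3a1 at -1.32 and Slc46a3 at 1.08 among them.

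**Figure D5:**
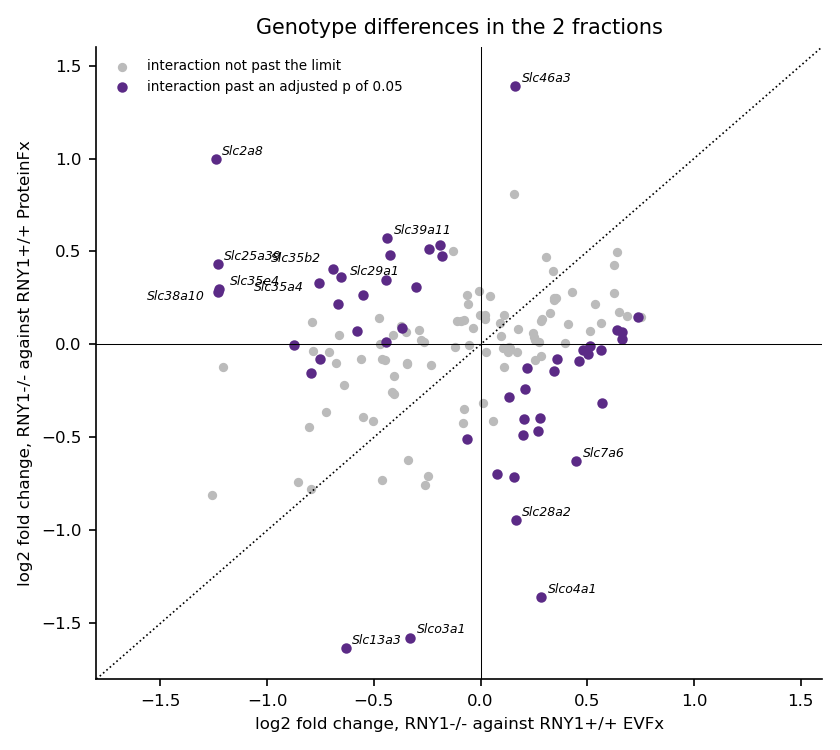
Log2 fold change of RNY1-/- against RNY1+/+ for EVFx (x axis) and ProteinFx (y axis), 1 point per member tested in both and in the interaction (141 members), purple where the interaction passed an adjusted p of 0.05 (50 members). The dotted line marks equal differences. Slc46a3 lies far above it, and Slc13a3, Slco3a1 and Slco4a1 lie far below it. The GC-rich Slc2a8, Slc25a39, Slc35e4 and Slc38a10 lie at the left with negative values for EVFx only. They are farther above the line than Slc46a3 (interactions 2.25, 1.67, 1.53 and 1.52 against 1.23).

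Carriers that do not bear an Slc symbol were counted as a list of 23, of which 18 were tested. None was called higher than PBS in any of the 4 comparisons by edgeR, and 1, 2, 2 and 3 passed an unadjusted p of 0.05 in that direction with RNY1+/+ EVFx, RNY1-/- EVFx, RNY1+/+ ProteinFx and RNY1-/- ProteinFx. Called lower were 2, 3, 3 and 2. Of all genes, 8.24%, 9.02%, 8.96% and 6.31% were called higher in these comparisons and 8.2%, 13.5%, 12.4% and 7.99% lower. The counts of the lists below stand beside the same shares. Ucp2, an inner mitochondrial membrane carrier, had log2 fold changes of -1.28, -2.24, -2.30 and -1.42, and Sidt2, a lysosomal membrane protein, of -1.24, -1.56, -1.68 and -0.95. Of a list of 16 genes made up of Atf4 and genes it is known to act on, where Atf4 encodes the transcription factor of amino acid shortage, 13 were tested against PBS and 9, 9, 8 and 9 were called higher by edgeR. None was called lower, and 0, 1, 1 and 0 were lower at an unadjusted p under 0.05. Mthfd2, a mitochondrial folate enzyme, rose from 13.7 ± 1.31 CPM in PBS to 162 ± 8.49, 135 ± 20.5, 131 ± 6.82 and 95.4 ± 9.03 CPM (SD, n = 4). Asns, asparagine synthetase, had log2 fold changes of 2.80, 2.84, 3.51 and 3.38, and Trib3, a pseudokinase, of 3.70, 3.06, 3.21 and 2.90. Of 6 partners of transporters tested, which include the chaperone Bsg and the Slc15a4 partner Tasl, 0, 2, 3 and 2 were called lower by edgeR, and 1, 3, 4 and 3 were lower at an unadjusted p under 0.05. Tasl itself had log2 fold changes of -0.23, 0.20, 0.95 and 0.82. The lists were drawn up with earlier results of these data known and are given as counts. Between genotypes with EVFx, 1 of 14 genes of the Atf4 list tested was called lower, against 1.98% of all genes. It was Nupr1 at -1.08, a gene picked here after its value was seen.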

How the data were processed

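RNA of BMDMs was sequenced from transcript 3′ ends with an oligo(dT) primer and unique molecular identifiers. Per the labels and the study's methods, the authors trimmed reads with fastp 0.24.0, aligned them to GRCm39 with STAR 2.7.11, removed duplicate molecules with UMIcollapse and counted them by strand with featureCounts (Subread 2.1.1), with fractional counts for reads that map to several places. The deposited expected counts hold fractions and were rounded to whole numbers before testing, and the deposited CPM values, scaled by the authors, were used for levels. The annotation release is not given in the sources used here.

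Groups came from the sample labels. Each comparison was fitted over its 8 libraries with the quasi-likelihood test of edgeR 4.0.16 (R 4.3.3) with TMM scaling, on genes that passed filterByExpr and a mean of 3 CPM in those libraries, and the interaction over 16 libraries. P-values were adjusted by Benjamini-Hochberg over all genes tested. The statistics were tested on simulated data. Promoter sequences are RefSeq's (GRCm38.p6), and GC content and length are those of the longest GENCODE transcript, found for at least 96.7% of the genes tested. Genes were named by rule: the 5 with the highest mean CPM, up to 10 called rises and falls against PBS, up to 5 between fraction groups (or the 3 of smallest adjusted p in a direction with no call), the 5 smallest interaction p-values, those at the limit of 3 CPM, family paralogs, and examples from the lists. Slc6a6, Slc7a6 and other genes with no call in a comparison appear there under another part of the rule. The members, lists and rules were chosen with earlier results of these data known.

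Alternatives were DESeq2 1.42.0, total counts, no limit of 3 CPM, one fit over 20 libraries, a replicate block, removal of length and GC trends by splines with 4 degrees of freedom, other call rules, and leaving out libraries. Same-numbered samples of RNY1-/- EVFx and PBS deviated together in every pair (correlations 0.129 to 0.381), which met the limit set for pairing, although only 1 of 4 libraries correlated best with its own number. Counts are limited by depth, and 3 counts or fewer were taken as not measurable.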

Additional observations from a re-analysis of the deposited data

Results flagged for a closer look

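Among 225 sets of 4 libraries (45 named genes in 5 groups), 14 (6.22%) held a library whose gap to the nearest other was above Dixon's 95% critical value as a share of the set's range, where chance gives about 1 in 20. In RNY1+/+ EVFx these were Slc25a1 (0.84, with 1 library at 9.18 CPM and the next at 5.17), Slc25a13 (0.863, low), Slc25a39 (0.833), Slc66a2 (0.844), Slc6a6 (0.871, low) and Slc7a5 (0.832, with 25.9 CPM against 16.7). In PBS they were Slc19a2 (0.919, with 6.18 CPM against 3.28), Slc25a5 (0.884) and Slc46a1 (0.832, low, with 2.74 CPM against 5.41). In RNY1-/- EVFx they were Slc30a4 (0.885) and Slc52a2 (0.874, low, with 1.23 CPM against 2.76). In RNY1-/- ProteinFx they were Slc13a3 (0.912, with 15.7 CPM against 12.3) and Slco3a1 (0.918, with 36.2 CPM against 31.1), and in RNY1+/+ ProteinFx Slc38a10 (0.902, with 9.80 CPM against 6.13).

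The genotype difference differed between the fractions for 51 members by the interaction test of edgeR, 33.8% of those tested against 33% of all genes, with 24 positive and 27 negative values. A positive value means that the ProteinFx difference was above the EVFx difference. Given here are the 15 with an absolute value above 1 and Slc31a1, which had one of the 5 smallest p-values. The positive values among these were Slc46a3 1.23, Slc25a39 1.67, Slc38a10 1.52, Slc2a8 2.25, Slc35b2 1.11, Slc35e4 1.53, Slc52a2 1.69, Slc39a11 1.01, Slc29a1 1.04 and Slc35a4 1.1. The negative values among these were Slc31a1 -0.872, Slco3a1 -1.25, Slc28a2 -1.11, Slco4a1 -1.66, Slc13a3 -1 and Slc7a6 -1.09. The adjusted p-values of these genes ran from 0.0013 (Slc46a3) to 0.0435 (Slc35a4).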

How the results depend on the processing

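Counts are given in the order RNY1+/+ EVFx, RNY1-/- EVFx, RNY1+/+ ProteinFx and RNY1-/- ProteinFx against PBS (higher and lower in each), then RNY1-/- against RNY1+/+ EVFx, the same for ProteinFx, and RNY1+/+ ProteinFx against RNY1+/+ EVFx. At an adjusted p alone they were 49 and 27, 46 and 42, 47 and 33, 29 and 24, 39 and 50, 3 and 11, and 45 and 55. With total counts, 14 were lower with RNY1+/+ EVFx, 33 lower with RNY1-/- EVFx and 13 higher with RNY1+/+ ProteinFx. With length and GC trends removed, 13, 8 and 6 were lower with RNY1-/- EVFx, RNY1+/+ ProteinFx and RNY1-/- ProteinFx, 0 were lower between EVFx genotypes (31 at an unadjusted p under 0.05, edgeR) and 9 between the RNY1+/+ fractions. With only RNY1-/- ProteinFx replicates 3 and 4, 20 were lower than PBS, 5 lower than RNY1+/+ ProteinFx and 7 passed the interaction. With only replicates 1 and 2, 3 were lower than PBS, 2 higher than RNY1+/+ ProteinFx and 83 passed the interaction. With all 16 libraries, 15 of the 51 interactions had an absolute value above 1. Over all genes, the counts called in most of these settings moved as well, as given above. The cause of these differences was not tested. Leaving out 1 library in turn gave 5 to 18 lower with RNY1-/- ProteinFx than PBS, 4 to 9 lower between EVFx genotypes, 1 to 2 higher and 2 to 5 lower between ProteinFx genotypes, and 32 to 68 interactions. Of all 10279 to 10927 genes tested, the same runs called 574 to 1182, 87 to 289, and 32 to 96 and 84 to 153. Interactions past the adjusted p with an absolute value above 1 then numbered 338 to 794 positive and 145 to 433 negative over all genes. With the replicate block the counts were 24 and 9, 21 and 20, 21 and 20, 13 and 16, 0 and 8, 1 and 3, and 11 and 22, with 51 interactions, and same-numbered samples correlated at above 0.1 in every pair only for RNY1-/- EVFx against PBS. Over all genes the block gave 906 and 866, 994 and 1446, 994 and 1280, 701 and 994, 39 and 186, 60 and 113, and 713 and 717. No named gene reversed, and over all alternatives its value stayed at an adjusted p under 0.05, whatever the fold, in 1543 cases and did not in 30, 11 of those outside the runs that left out 1 library. The genes were named by their values in these same libraries, so most of them could be expected to stay. Runs in which a gene did not pass the filter are in neither count. Genes near 3 CPM rest on few counts in the shallowest library of 2510005 counts.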
